A study of Mus musculus with 7 samples.

Results

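The genes described are 40 complement and coagulation genes of mouse liver, 22 of complement and 18 of coagulation, among the 21706 genes listed in the expression table. They were taken by symbol from a list of plasma cascade genes, a rule that uses no threshold on the measured values. Hepatic mRNA was sequenced from male C57BL/6 mice that were given tsRNA-Glu-CTC Oligo-1 (3 livers) or a control oligonucleotide (4 livers), to ask which liver genes differ when this small RNA is raised. tsRNA-Glu-CTC is a fragment of the transfer RNA that carries glutamate, and oligo-1 is a synthetic form of it. All mice were 8 weeks old wild-type animals, received their oligonucleotide by intraperitoneal injection for 2 weeks and, per the study's methods, ate a low-cholesterol diet and were fasted before tissue was taken. The study describes each library as 1 mouse.

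Complement is a cascade of plasma proteins that tags and lyses microbes. C1q and the mannose-binding lectins recognise surfaces, serine proteases pass the signal on, all routes meet at C3, and the terminal components assemble a pore. Coagulation is a parallel protease cascade that ends with thrombin cutting fibrinogen to fibrin. Hepatocytes make nearly all of these proteins, while C1q comes from macrophages, which in liver are mostly Kupffer cells, and properdin (Cfp) comes mainly from leukocytes.

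Gene positions are from GENCODE M21 on the mm10 build, which placed all 40 genes. Several lie side by side. The C1q chains sit together on chromosome 4 (C1qa chr4:136895917-136898803, minus strand; C1qb chr4:136880129-136886187, minus strand; C1qc chr4:136889804-136893065, minus strand). The fibrinogen chains form a cluster on chromosome 3 (Fga chr3:83026076-83033627, plus strand; Fgb chr3:83040141-83049863, minus strand; Fgg chr3:83007724-83015049, plus strand). C8a and C8b are neighbours on chromosome 4, F7, F10 and Proz on chromosome 8, and C2, Cfb and C4b on chromosome 17. C3 is at chr17:57203970-57228136, minus strand, C9 at chr15:6445327-6498751, plus strand and Masp2 at chr4:148602554-148615499, plus strand.

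Promoters of the genes on which the results turn are printed here because the contrast of macrophage with hepatocyte genes, and the genes that differed most clearly, can be read beside them. They are the 200 bases before the RefSeq start on GRCm38.p6, printed 5′ to 3′ on the strand of the gene. Of the 40 genes, 31 had a RefSeq promoter entry, with 32 windows in all. Both strands were searched for GAGGAA, the core bound by the myeloid factor PU.1, for GTTAAT, a short site of the hepatocyte factor HNF1, and for TTGCNNAA, a form of the C/EBP motif. No matches in these genes overlapped. Capitals mark 1 motif in each sequence, on either strand: the PU.1 core in C1qb and C1qc, the HNF1 site in Fga and Fgb, and the C/EBP motif in C3 and C9. Masp2 held none of the 3 motifs in this window.
C1qb (chr4:136886201-136886400, minus strand): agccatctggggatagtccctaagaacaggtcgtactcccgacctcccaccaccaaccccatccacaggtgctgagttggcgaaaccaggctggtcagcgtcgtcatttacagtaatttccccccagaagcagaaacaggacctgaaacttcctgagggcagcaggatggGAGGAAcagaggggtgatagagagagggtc
C1qc (chr4:136892915-136893114, minus strand): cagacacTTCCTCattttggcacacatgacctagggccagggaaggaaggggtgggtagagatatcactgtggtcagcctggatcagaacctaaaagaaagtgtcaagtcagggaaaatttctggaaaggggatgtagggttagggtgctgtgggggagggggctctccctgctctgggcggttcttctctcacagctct
Fga (chr3:83025953-83026152, plus strand): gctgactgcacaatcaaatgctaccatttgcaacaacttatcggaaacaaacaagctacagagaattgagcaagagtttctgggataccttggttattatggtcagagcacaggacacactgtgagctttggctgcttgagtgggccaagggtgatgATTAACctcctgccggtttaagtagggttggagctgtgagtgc
Fgb (chr3:83049864-83050063, minus strand): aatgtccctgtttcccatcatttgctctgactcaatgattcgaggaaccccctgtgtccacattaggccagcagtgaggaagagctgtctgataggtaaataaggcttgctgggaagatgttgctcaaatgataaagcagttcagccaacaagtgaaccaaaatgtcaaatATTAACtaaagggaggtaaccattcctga
C3 (chr17:57228137-57228336, minus strand): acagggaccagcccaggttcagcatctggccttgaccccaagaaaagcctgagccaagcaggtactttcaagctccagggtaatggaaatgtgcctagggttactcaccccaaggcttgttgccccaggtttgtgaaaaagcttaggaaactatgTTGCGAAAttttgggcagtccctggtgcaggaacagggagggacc
C9 (chr15:6445146-6445345, plus strand): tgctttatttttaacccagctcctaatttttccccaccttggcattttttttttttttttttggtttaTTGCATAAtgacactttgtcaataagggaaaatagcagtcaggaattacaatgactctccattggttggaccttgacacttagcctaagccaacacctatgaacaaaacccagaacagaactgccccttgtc
Masp2 (chr4:148602344-148602543, plus strand): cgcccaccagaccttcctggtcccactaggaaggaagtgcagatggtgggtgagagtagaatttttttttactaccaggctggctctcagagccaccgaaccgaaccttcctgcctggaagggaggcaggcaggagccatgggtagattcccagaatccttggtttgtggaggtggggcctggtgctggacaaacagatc

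The PU.1 core was present in 4 of the 31 genes (C1qb, C1qc, F7 and Fgb), and in 19% of all 32851 promoter windows of the same length. The HNF1 site was present in 9 (C1ra, C4bp, C8a, Cfp, F13b, Fga, Fgb, Hc and Vtn), against 5.06% of all windows. In Fga it lay 43 to 38 bases before the start and in Fgb 29 to 24 bases before it. The C/EBP motif was present in 8 (C3, C9, F11, F9, Fga, Fgb, Hrg and Klkb1), against 7.47% of all windows. In C3 it lay 45 to 38 bases before the start. Fgb held all 3 motifs. These matches are descriptions of the letters and do not show that a factor binds there.

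Expression was given as TPM, a share of each library's transcripts, corrected for transcript length so that levels can be compared between genes. Values are listed in the order of replicates 1 to 3 for oligo-1 and 1 to 4 for the control oligonucleotide. Differences are log2 fold changes, oligo-1 minus control, on the log2(TPM + 1) scale with the limma standard error (SE), and p-values are 2-sided from limma's moderated test. Adjusted p-values are Benjamini-Hochberg values over all 10455 genes tested. Sequencing depth is unknown for TPM, so no counting error is given.

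The control livers were not alike. On the first principal component of all tested genes, with 62.7% of the variance, controls 1 and 4 lay at 55.9 and 53.7 and the other 5 livers between -28.4 and -14.7. No gene of the table passed an adjusted p of 0.05 in limma, where the lowest value was 0.202. At an unadjusted p below 0.05, 189 genes were higher with oligo-1 and 444 were lower. After median-ratio scaling of the libraries, those counts were 486 and 410. Over the genes tested, the median difference stood at -0.16 on the deposited scale and at -0.0058 after scaling, so a member at 0 stood 0.16 above the typical gene. The hepatocyte markers (Alb, Ttr and 6 others) summed to 69926 to 84194 TPM in the oligo-1 livers and 71462 to 84186 TPM in the control livers, with Alb the largest part. They went both ways, and at the unadjusted threshold Ttr was higher (0.31, groups separated) and Tat (-0.39, groups separated) and Cps1 (-0.51) were lower.

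All 40 genes passed the filter on low values, at least 1 TPM in at least 3 libraries, and most differed little between the groups. Of the 40, 33 had a log2 fold change within ±0.32, a change of less than 1.25-fold, as had 68.4% of all tested genes and 72.6% of the 3543 tested genes in the same range of expression. No member passed the adjusted threshold (background 0.00% in each direction), and the lowest adjusted p among them was 0.768. At the unadjusted threshold 1 member was higher with oligo-1, Masp2 (background 1.81%), and 1 was lower, C3 (background 4.25%). The oligo-1 livers lay wholly above the control livers for Masp2 (background 2.00%) and wholly below them for C3 and C9 (background 4.98%). These counts are near the shares found among all genes. After scaling, Masp2 was the 1 member higher at the unadjusted threshold (background 4.65%) and none was lower (background 3.92%), while Masp2 alone had separated groups (background 4.96% above and 4.76% below). Median log2 fold changes were -0.03 for the 40 genes, -0.09 for complement and 0.02 for coagulation. After scaling, the medians of complement and coagulation were 0.0904 and 0.20, so the sign of the complement median depended on the scale. Complement minus coagulation in median was -0.11 on both scales, but 0.0572 without controls 1 and 4 and -0.23 to -0.058 when 1 liver was left out, lowest without control 3 and nearest 0 without control 1.

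**Figure D1:**
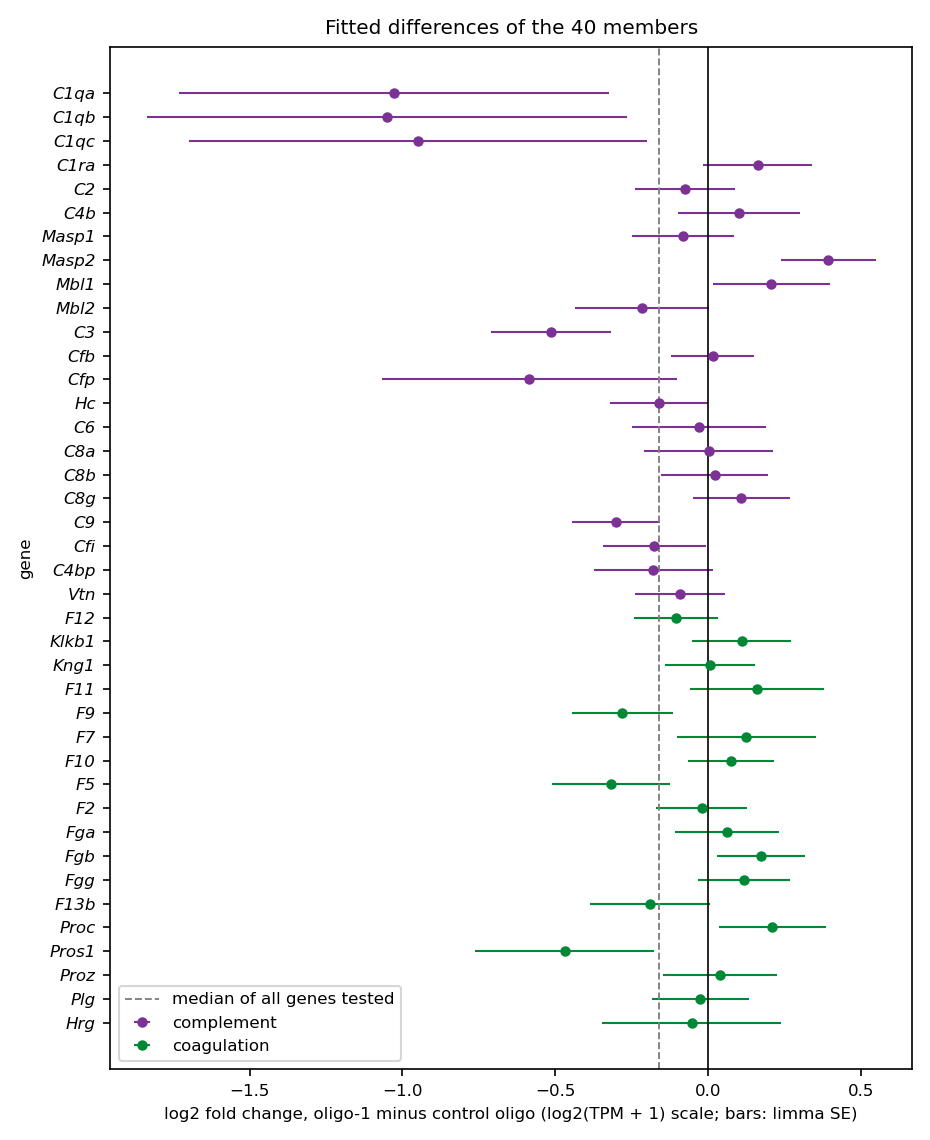
Log2 fold change (oligo-1 minus control oligonucleotide, log2(TPM + 1) scale) of each of the 40 genes, with bars for the limma SE, complement in purple and coagulation in green; the dashed line marks the median gene of the table, -0.16. Most points lie near 0; the 3 C1q chains lie near -1 with the widest bars, C3 lies at -0.51 and Masp2 at 0.39.

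**Figure D2:**
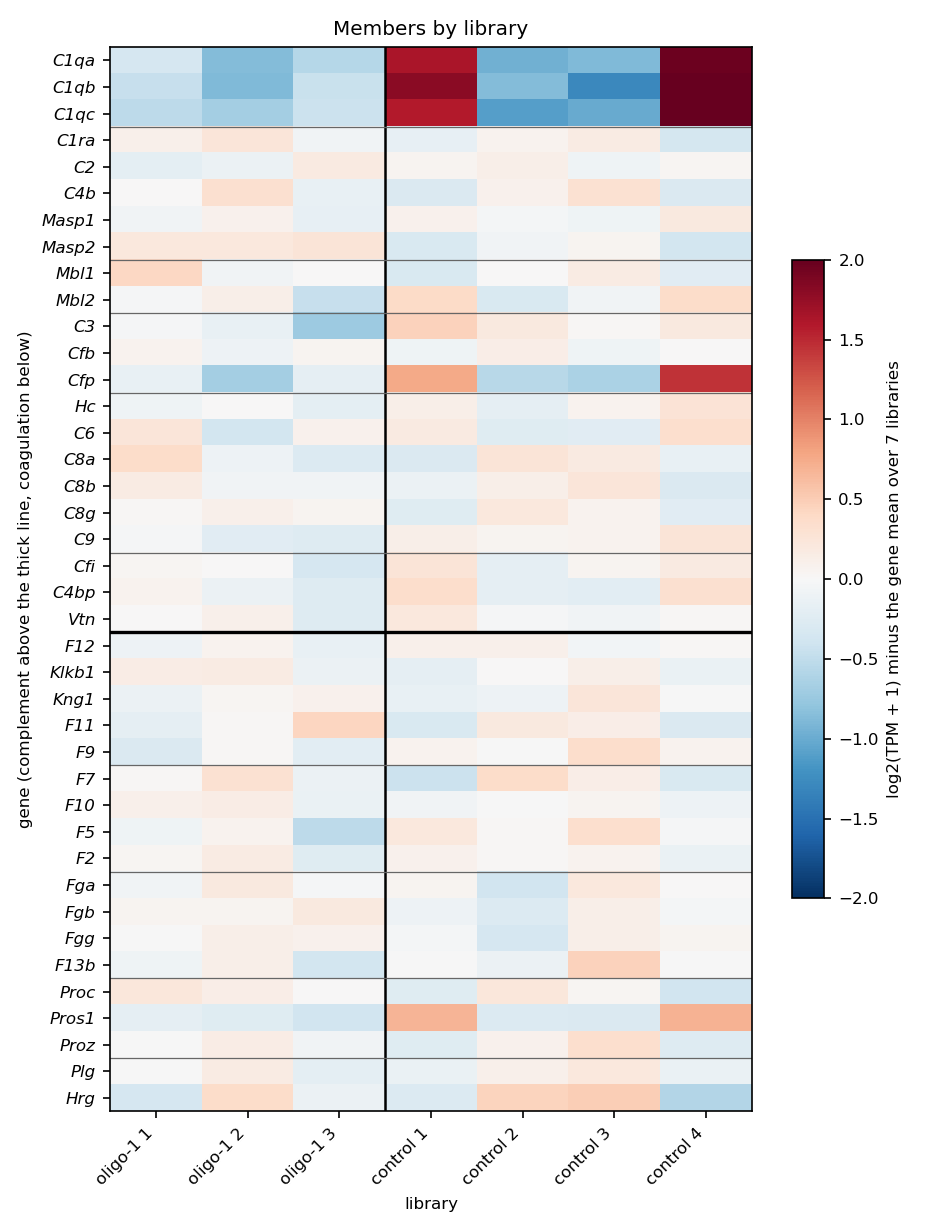
Each gene's log2(TPM + 1) minus its mean over the 7 livers, by library, with complement above the thick line and coagulation below it; colours stop at 2 in either direction. The C1q chains have the deepest colours, in controls 1 and 4, and Cfp and Pros1 are also high there. The other genes stay paler than the C1q chains in those 2 livers.

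The recognition molecule C1q, which starts the classical pathway, varied more between livers than any other member, and most of that spread lay among the control livers. C1qa had 38.6, 26.3 and 32.7 TPM in the oligo-1 livers, against 154, 24.7, 26.0 and 193 TPM in the control livers. C1qb had 28.4, 20.9 and 28.8 TPM in the oligo-1 livers, against 141, 21.2, 15.6 and 178 TPM in the control livers. C1qc had 22.1, 19.8 and 23.8 TPM in the oligo-1 livers, against 99.1, 14.6, 15.6 and 146 TPM in the control livers. Controls 1 and 4 were far above the other 5 livers for all 3 chains, and controls 2 and 3 were close to or below the oligo-1 livers. The fitted differences were -1.03 (SE 0.70, adjusted p = 0.775) for C1qa, -1.05 (SE 0.79, adjusted p = 0.775) for C1qb and -0.95 (SE 0.75, adjusted p = 0.775) for C1qc. The 95% interval for C1qa ran from -2.61 to 0.55, which spans 0. Without controls 1 and 4 the differences turned positive, at 0.33, 0.48 and 0.51 for C1qa, C1qb and C1qc. Of these only C1qc passed the unadjusted threshold (limma adjusted p = 0.393), in a fit where 6.99% of genes did so upward.

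Most macrophage markers moved with C1q. The 3 C1q chains summed to 89.1, 67.0 and 85.3 TPM in the oligo-1 livers, against 394.0, 60.5, 57.3 and 516.7 TPM in the control livers. The 11 Kupffer cell and macrophage markers, among them Clec4f and Cd5l, summed to 97.8, 81.3 and 76.2 TPM in the oligo-1 livers, against 438.7, 63.5, 62.1 and 539.9 TPM in the control livers. None of the 11 passed an unadjusted p of 0.05, their median log2 fold change was -0.81, and none was at 0 in all livers. Controls 1 and 4 were the 2 highest livers for 10 of the 11, against 51.5% of all tested genes. The exception was Cd163, with 1.18, 1.03 and 1.04 TPM in the oligo-1 livers, against 0.72, 0.885, 0.456 and 1.08 TPM in the control livers. The ratio of the C1q sum to the marker sum was 0.911, 0.825 and 1.12 in the oligo-1 livers and 0.898, 0.952, 0.922 and 0.957 in the control livers. C1q and the marker sum were thus both high in controls 1 and 4, and their ratio there lay within the range of the other livers. Lyz2, Cd5l and Clec4f were the largest part of the marker sum, so the ratio does not describe each marker. Clec4f had 59.1 and 84.9 TPM in controls 1 and 4 and 11.2 to 18.7 TPM in the other livers. Cd68 had 26.7 and 29.2 TPM in controls 1 and 4 and 1.14 to 3.42 TPM in the other livers. In bulk tissue, fewer cells of a type and less RNA per cell cannot be told apart. The part of macrophage content in the C1q difference was not tested. The sum of the 36 other genes, without C1q and Cfp, showed no such step, with 15764, 16792 and 14762 TPM in the oligo-1 livers and 16220, 15095, 17009 and 15727 TPM in the control livers. The most abundant genes carry this sum, and single genes within it went both ways. C3 and Pros1 were among those highest in controls 1 and 4, and Masp2 and Proc among those lowest there.

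**Figure D3:**
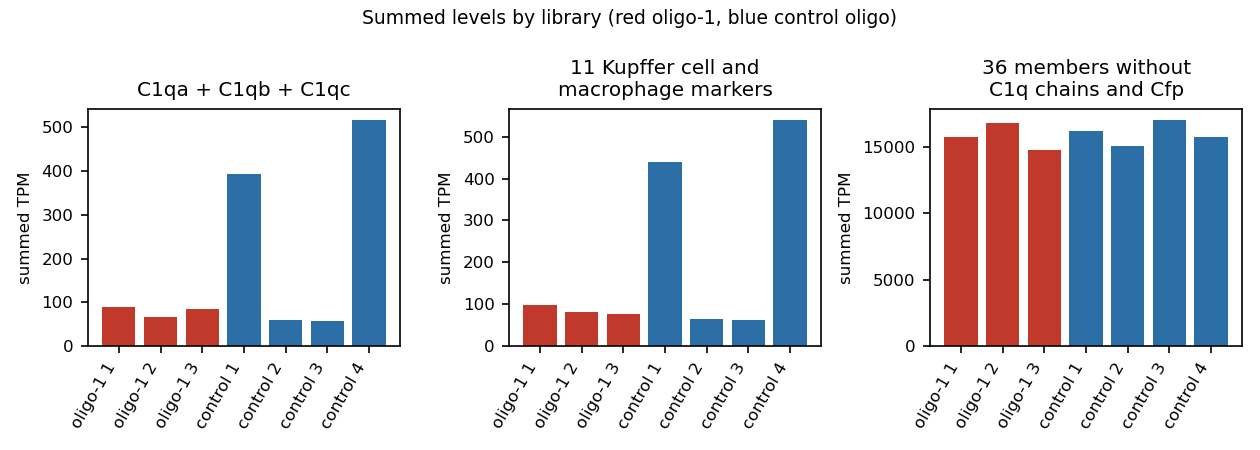
Summed TPM by liver for the 3 C1q chains, for 11 Kupffer cell and macrophage markers and for the 36 members made mainly by hepatocytes (red oligo-1, blue control). Controls 1 and 4 stand at 394.0 and 516.7 TPM for C1q and at 438.7 and 539.9 TPM for the markers, while the hepatocyte factors span 14762 to 17009 TPM without such a step.

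Properdin, which stabilises the alternative pathway convertase, was likewise highest in controls 1 and 4. Cfp had 10.8, 7.21 and 10.5 TPM in the oligo-1 livers, against 21.2, 7.87, 7.40 and 34.5 TPM in the control livers. Its fitted difference was -0.59 (SE 0.48, adjusted p = 0.775). Markers of neutrophils, leukocytes that carry properdin, summed to 1.64 to 3.38 TPM in the oligo-1 livers and 3.12 to 15.2 TPM in the control livers, with control 3 highest. These sums are low, and of the 6 markers only S100a8 and S100a9 passed the filter on low values. S100a9 was lower at the unadjusted threshold (background 4.25%), at -1.08 with separated groups (background 4.98%), and S100a8 was not. The part of neutrophils in the Cfp difference was not tested. Vsig4, a macrophage receptor for C3 fragments and no member of the 40, had 6.71, 7.74 and 5.80 TPM in the oligo-1 livers, against 34.1, 6.00, 4.49 and 44.6 TPM in the control livers, again highest in controls 1 and 4.

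Among the classical and lectin proteases, Masp2 was the member highest above its controls. MASP-2 is the protease of the lectin pathway that cuts C4 and C2. Masp2 had 220.1, 222 and 227 TPM in the oligo-1 livers, against 155, 182, 198 and 148 TPM in the control livers. Every oligo-1 liver was above every control liver, and the oligo-1 values lay close together. The means were 223 ± 3.68 TPM in the oligo-1 livers (SD, n = 3) and 171 ± 23.3 TPM in the control livers (SD, n = 4). The difference was 0.39 (SE 0.16, adjusted p = 0.768), with a 95% interval of 0.04 to 0.74. Controls 1 and 4 were the lowest 2 livers. Without them the Masp2 groups still did not overlap, but 17.8% of all tested genes then lay wholly above the controls. The Masp2 difference was then 0.23 and missed the unadjusted threshold, as it did without control 1, control 4 or any 1 oligo-1 liver.

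Its relatives did not share this pattern. Masp1, whose product activates MASP-2, ranged over 25.6 to 30.8 TPM in the oligo-1 livers and 27.0 to 33.1 TPM in the control livers. The ratio of Masp2 to Masp1 was 7.99, 7.21 and 8.87 in the oligo-1 livers and 5.05, 6.52, 7.32 and 4.48 in the control livers, so the groups overlapped. C4b, whose product is deposited on the target surface, had 193, 240.2 and 173 TPM in the oligo-1 livers, against 158, 203, 239 and 158 TPM in the control livers. C4b differed by 0.10 (SE 0.20, adjusted p = 0.886). C4b and C4a are near-identical copies, and reads may be divided between them, so the C4b level is uncertain. No level was given for C4a. C1ra and C2, the other proteases of this step, differed by 0.16 and -0.08. C1ra likewise has a close copy, C1rb, which was given at most 0.085 TPM in any liver.

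The lectins that feed MASP-2 ran in opposite directions across the control livers. Mbl1 had 86.8, 61.9 and 65.6 TPM in the oligo-1 livers, against 52.3, 65.6, 73.3 and 55.3 TPM in the control livers. Mbl2, the more abundant of the 2 mannose-binding lectins, had 422, 468 and 313 TPM in the oligo-1 livers, against 562, 349.6, 408 and 555 TPM in the control livers. Neither differed beyond the spread, with 0.21 (SE 0.19, adjusted p = 0.780) for Mbl1 and -0.22 (SE 0.22, adjusted p = 0.791) for Mbl2. The ratio of Mbl2 to Mbl1 was 4.86, 7.57 and 4.77 in the oligo-1 livers and 10.74, 5.33, 5.57 and 10.03 in the control livers. Controls 1 and 4 had the highest Mbl2 and the lowest Mbl1, so that ratio separated them from the other 5 livers.

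C3, the protein on which all complement routes converge, was the member lowest below its controls among the hepatocyte genes. C3 had 1172, 1077 and 722 TPM in the oligo-1 livers, against 1635, 1363, 1209 and 1363 TPM in the control livers. All 3 oligo-1 livers were below all 4 control livers, although oligo-1 liver 1 and control 3 were close and oligo-1 liver 3 was far the lowest. The means were 990.2 ± 237 TPM in the oligo-1 livers (SD, n = 3) and 1392 ± 177 TPM in the control livers (SD, n = 4). The difference was -0.51 (SE 0.20, adjusted p = 0.768), with a 95% interval of -0.95 to -0.07. It missed the unadjusted threshold without oligo-1 liver 3, at -0.30, without control 1, at -0.43, and without both controls 1 and 4, at -0.40. After median-ratio scaling the difference was -0.33 with overlapping groups.

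Factor B, the protease that C3b binds to form the alternative convertase, was the steadiest of all members. Cfb lay between 480.9 and 543 TPM in the oligo-1 livers and between 487 and 566 TPM in the control livers, 1.18-fold from lowest to highest. Its difference was 0.02 (SE 0.14, adjusted p = 0.978), with a 95% interval of -0.29 to 0.32. The ratio of C3 to Cfb was 2.16, 2.24 and 1.34 in the oligo-1 livers and 3.35, 2.41, 2.48 and 2.62 in the control livers, and these did not overlap. A ratio within a liver does not depend on the scaling of that library. With Cfb so steady on the deposited scale, however, this ratio largely repeats the C3 values and is no separate evidence on C3. The groups overlapped for the other ratios computed, and no share over all gene pairs was computed.

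The terminal components form the membrane attack pore, for which C9 supplies the polymerising subunit. C9 had 215, 187 and 182 TPM in the oligo-1 livers, against 238, 226, 231 and 263 TPM in the control livers. All oligo-1 livers were below all control livers, and the difference was -0.30 (SE 0.14, adjusted p = 0.768). It stayed below 0 after median-ratio scaling, at -0.12, where the groups overlapped. The other 5 terminal genes differed by -0.16 to 0.11. C8g, the most abundant of them and the gene of the lipocalin-like gamma chain of C8, had 471, 494 and 480.3 TPM in the oligo-1 livers, against 388, 534, 487 and 394 TPM in the control livers. C8g differed by 0.11 (SE 0.16, adjusted p = 0.846). Overlapping groups were also seen for Hc (the gene of C5) and for C6, C8a and C8b.

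The 3 soluble regulators had estimates below 0, none past the threshold. Cfi, the protease that inactivates C3b and C4b, had 292, 285 and 224 TPM in the oligo-1 livers, against 340.2, 249.7, 295 and 321 TPM in the control livers. Its difference was -0.18 (SE 0.17, adjusted p = 0.783) and turned to 0.0037 after scaling. Vtn encodes vitronectin, which binds the nascent terminal complex and keeps it off membranes. Vtn had 1529.5, 1619 and 1260.0 TPM in the oligo-1 livers, against 1762, 1494, 1443 and 1545 TPM in the control livers. Its difference was -0.09 (SE 0.15, adjusted p = 0.858). C4bp, a cofactor of factor I, differed by -0.18. The 18 complement genes without C1q and Cfp had a median of -0.05 on the deposited scale and 0.12 after scaling.

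**Figure D4:**
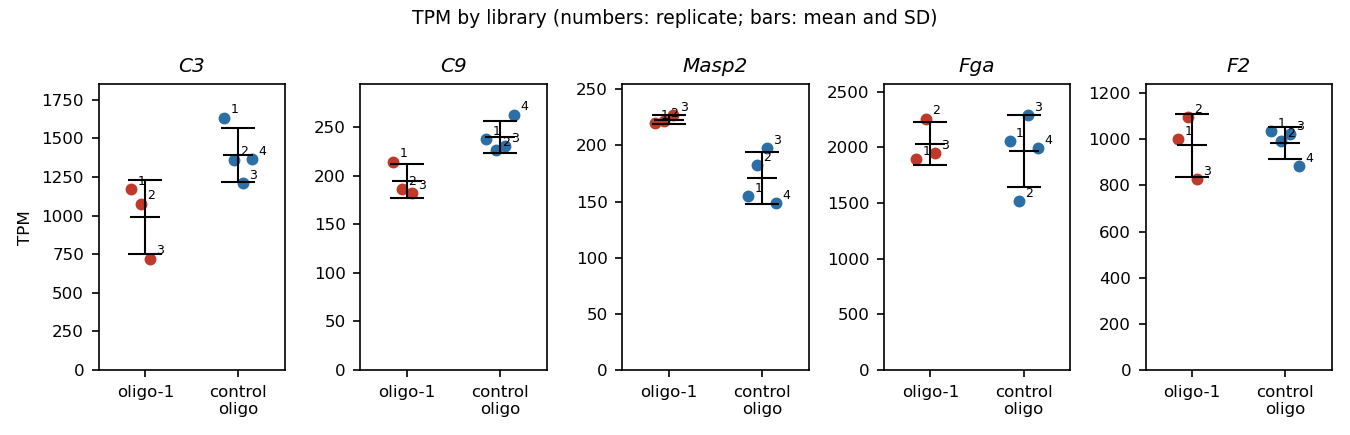
TPM by liver for C3, C9, Masp2, Fga and F2, oligo-1 left and control right in each panel, with replicate numbers beside the points and bars for the mean and SD. The oligo-1 points lie below all control points for C3 and C9 and above them for Masp2, and overlap them for Fga and F2.

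Coagulation showed no gene past the unadjusted threshold (background 1.81% higher and 4.25% lower). None had separated groups (background 2.00% above and 4.98% below). For 18 genes these counts are near the shares found among all genes. The 18 log2 fold changes spanned -0.47 to 0.21, and 17 of them lay within ±0.32. The exception was Pros1. From the lowest to the highest liver, the coagulation genes varied by a median of 1.51-fold, against 1.53-fold for complement, with maxima of 2.20-fold for Pros1 and 11.4-fold for C1qb.

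Fibrinogen, the most abundant coagulation product and the precursor of fibrin, did not differ beyond the spread between livers in any of its 3 chains. Fga had 1893, 2257 and 1951 TPM in the oligo-1 livers, against 2055, 1517, 2292 and 1992 TPM in the control livers. Fgb had 979, 980.2 and 1085 TPM in the oligo-1 livers, against 886, 779, 1021 and 926 TPM in the control livers. Fgg had 2214, 2393 and 2363 TPM in the oligo-1 livers, against 2168, 1752, 2393 and 2309 TPM in the control livers. The groups overlapped for each chain, and control 2 was the lowest liver for all 3. Differences were 0.06 (SE 0.17, adjusted p = 0.918) for Fga, 0.17 (SE 0.14, adjusted p = 0.776) for Fgb and 0.12 (SE 0.15, adjusted p = 0.826) for Fgg. Their 95% intervals ended at 0.44, 0.50 and 0.45 upward and at -0.32, -0.15 and -0.22 downward. The ratio of Fga to Fgb averaged 2.01 ± 0.26 in the oligo-1 livers (SD, n = 3) and 2.17 ± 0.16 in the control livers (SD, n = 4). The ratio of Fgg to Fgb averaged 2.29 ± 0.13 in the oligo-1 livers and 2.38 ± 0.11 in the control livers. F13b, the carrier subunit of the factor that crosslinks fibrin, differed by -0.19.

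The proportions of chains in other proteins overlapped between the groups as well. The ratio of C1qa to C1qb averaged 1.25 ± 0.11 in the oligo-1 livers and 1.25 ± 0.28 in the control livers, over a range of 1.08 to 1.66, although the chains themselves varied up to 11.4-fold. The ratio of C8a to C8b averaged 1.05 ± 0.15 in the oligo-1 livers and 1.06 ± 0.12 in the control livers. The C1q chains were all highest in controls 1 and 4, but among the other livers they did not always move together. From control 2 to control 3, C1qb fell from 21.2 to 15.6 TPM. Between the same livers C1qa rose from 24.7 to 26.0 TPM and C1qc from 14.6 to 15.6 TPM.

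**Figure D5:**
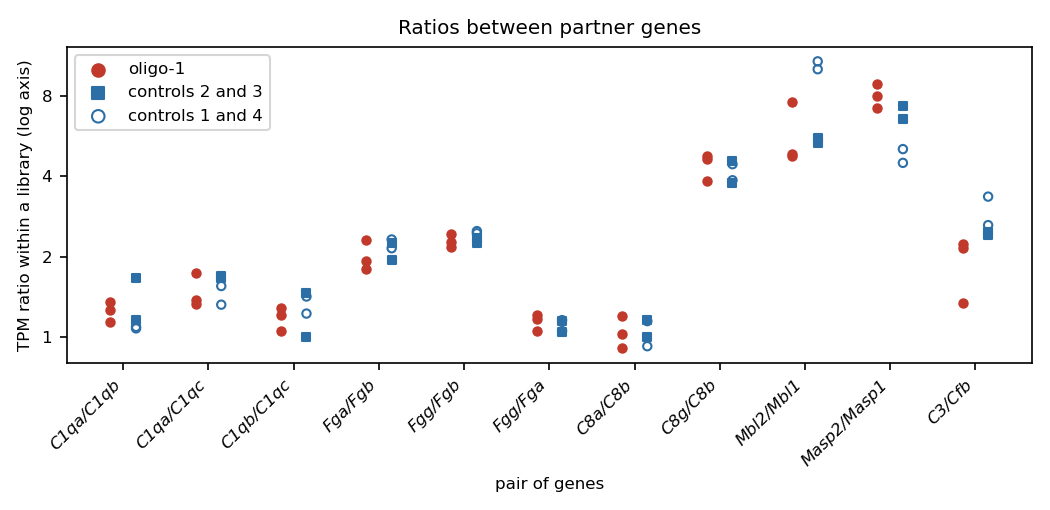
TPM ratios between partner genes within each liver on a log axis, oligo-1 in red and control in blue, with controls 1 and 4 as open circles. Ratios among C1q, fibrinogen and C8 chains overlap between groups, Mbl2/Mbl1 is highest in controls 1 and 4, and C3/Cfb is lower in all oligo-1 livers than in all control livers.

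Thrombin and its feeding proteases had overlapping groups. F2, which encodes prothrombin, had 999.8, 1096 and 827 TPM in the oligo-1 livers, against 1037, 992, 1021 and 885 TPM in the control livers. Its difference was -0.02 (SE 0.15, adjusted p = 0.970), with a 95% interval of -0.36 to 0.31. F5 encodes the cofactor that speeds prothrombin cleavage. F5 had 48.3, 53.7 and 35.5 TPM in the oligo-1 livers, against 59.5, 52.3, 65.1 and 50.4 TPM in the control livers. Its difference was -0.32 (SE 0.19, adjusted p = 0.769), with oligo-1 liver 3 the lowest of 7. F10, which cuts prothrombin, and F7, which starts the extrinsic route, differed by 0.07 and 0.13.

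Among the contact and intrinsic factors, Kng1 had the highest level and F9 the smallest p. Kng1 encodes kininogen, the source of bradykinin. Kng1 had 1063, 1184 and 1221 TPM in the oligo-1 livers, against 1037, 1077, 1359 and 1146 TPM in the control livers. Its difference was 0.01 (SE 0.15, adjusted p = 0.989), and because Kng1 and Kng2 are near-identical copies, reads may be divided between them. F9 encodes the factor missing in haemophilia B. F9 had 57.7, 71.6 and 60.8 TPM in the oligo-1 livers, against 74.3, 70.0, 90.5 and 74.0 TPM in the control livers. Only oligo-1 liver 2 reached into the control range for F9, and the difference was -0.28 (SE 0.17, adjusted p = 0.768). F11, F12 and Klkb1, the proteases of the contact route, differed by 0.16, -0.10 and 0.11.

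The vitamin K-dependent anticoagulants did not move as a group. Proc, which encodes protein C, a protease that cuts activated factors V and VIII, had 504, 474 and 433 TPM in the oligo-1 livers, against 366, 504, 441 and 331 TPM in the control livers. Its difference was 0.21 (SE 0.18, adjusted p = 0.776), with controls 1 and 4 the lowest livers. Pros1 encodes protein S, the cofactor of protein C, which is made outside hepatocytes as well. Pros1 had 15.2, 14.4 and 12.98 TPM in the oligo-1 livers, against 28.2, 14.03, 13.9 and 28.6 TPM in the control livers. Its difference was -0.47 (SE 0.29, adjusted p = 0.770), with controls 1 and 4 above the other 5 livers. Without those 2 livers it was 0.02. The 5 platelet and megakaryocyte markers summed to 1.48 to 2.75 TPM in the oligo-1 livers and to 5.48, 2.34, 0.43 and 6.86 TPM in the control livers. These sums are low, and of the 5 markers only Pf4 passed the filter on low values. Controls 1 and 4 were the 2 highest livers for 3 of the 5, as they were for 51.5% of all tested genes. Ppbp was highest in oligo-1 liver 1 and Gp1ba in oligo-1 liver 3. The part of platelets in the Pros1 values was not tested. Proz, the cofactor of a factor X inhibitor, differed by 0.04.

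The fibrinolytic members overlapped between the groups too. Plg, the precursor of the fibrin-cutting protease plasmin, had 811, 913 and 709.6 TPM in the oligo-1 livers, against 740.2, 876, 949 and 741 TPM in the control livers. Its difference was -0.03 (SE 0.16, adjusted p = 0.966). Hrg, a plasma glycoprotein that binds plasminogen and heparin, had 293, 478 and 344 TPM in the oligo-1 livers, against 307, 509, 526 and 247 TPM in the control livers. Its difference was -0.05 (SE 0.29, adjusted p = 0.962), and Hrg was low in controls 1 and 4 and in oligo-1 livers 1 and 3. Without controls 1 and 4 Hrg differed by -0.51 (limma adjusted p = 0.482) and passed the unadjusted threshold. In that fit 2.81% of genes were lower at the unadjusted threshold.

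Controls 1 and 4 stood at the ends of the range for many members. They were the 2 highest livers for 11 of the 40 genes, 10 of complement (C1qa, C1qb, C1qc, C3, Cfp, Mbl2, Cfi, C4bp, Hc and C9) and 1 of coagulation (Pros1). The share was 27.5%, against 51.5% of all tested genes. They were the 2 lowest livers for another 11, 6 of complement (C1ra, C4b, Masp2, Mbl1, C8b and C8g) and 5 of coagulation (Proc, Proz, Klkb1, F11 and F7). That was also 27.5%, against 4.45% of all tested genes. Without controls 1 and 4 no member passed the adjusted threshold (background 0.0101% higher and 0.00% lower), 3 members lay wholly above the controls (C1qa, C1qc and Masp2, background 17.8%) and 3 wholly below (C3, C9 and Hrg, background 7.81%).

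The contrast of complement with coagulation within each liver followed C1q. A set's level is the mean over its genes of log2(TPM + 1) after each gene's mean is subtracted. Complement minus coagulation was 0.04, -0.26 and -0.09 in the oligo-1 livers, against 0.34, -0.16, -0.32 and 0.45 in the control livers. With C1q and Cfp left out of complement, the values were 0.12, -0.12 and -0.04 in the oligo-1 livers, against 0.08, -0.0022, -0.14 and 0.10 in the control livers. The spread thus shrank and the groups overlapped throughout. C1q minus the 18 other complement genes was -0.51, -0.80 and -0.33 in the oligo-1 livers, against 1.65, -0.98, -1.09 and 2.06 in the control livers. The oligo-1 livers lay between the 2 pairs of control livers in that contrast.

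Other genes of the same pathways, 54 on the list and 36 tested, had a median log2 fold change of -0.04. None was higher at an unadjusted p below 0.05 (background 1.81%) and 3 were lower (background 4.25%), among them Thbd and Clu. Thbd encodes thrombomodulin, the endothelial receptor that turns thrombin toward protein C. Thbd had 1.99, 1.66 and 1.92 TPM in the oligo-1 livers, against 5.38, 3.50, 4.16 and 3.85 TPM in the control livers. The groups did not overlap, and the difference of -0.86 (SE 0.21, adjusted p = 0.440) was the clearest among these pathway genes. Without controls 1 and 4 it was -0.75 (limma adjusted p = 0.264) and still passed the unadjusted threshold. The 6 sinusoidal endothelial markers summed to 83.2 to 100.9 TPM in the oligo-1 livers and 65.4 to 105 TPM in the control livers, with Clec4g the largest part. One of them, Lyve1, was lower at the unadjusted threshold, with 1.37, 1.54 and 3.94 TPM in the oligo-1 livers, against 11.6, 6.58, 3.20 and 10.6 TPM in the control livers and a difference of -1.42 (SE 0.42, adjusted p = 0.605). Pecam1 differed by -0.30, and the other 4, Stab2, Clec4g, Fcgr2b and Kdr, by 0.21 to 0.37. The part of endothelial content in Thbd was not tested.

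Clu, a plasma chaperone that binds the terminal complement complex, had 760.1, 770.3 and 674 TPM in the oligo-1 livers, against 1147, 884, 799 and 1193 TPM in the control livers. Its difference was -0.43 (SE 0.18, adjusted p = 0.768) and fell short of the unadjusted threshold after scaling, without control 1, control 4 or both, and without any 1 oligo-1 liver. Of the 36 genes, 3 lay wholly below the controls (Thbd, Clu and Mcfd2, background 4.98%) and 0 wholly above (background 2.00%). Mcfd2, a partner in the secretion of factors V and VIII, had 147, 156 and 125 TPM in the oligo-1 livers, against 205, 158, 173 and 183 TPM in the control livers. Serpinc1 (antithrombin) and Serping1 (C1 inhibitor) differed by 0.03 and 0.02.

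Of 11 regulators of liver plasma protein genes, 1 was lower at the unadjusted threshold (background 4.25%) and none was higher (background 1.81%), with a median of -0.24. Cebpd, an acute phase member of the C/EBP family, had 5.41, 4.32 and 6.78 TPM in the oligo-1 livers, against 10.1, 9.46, 5.95 and 10.6 TPM in the control livers. Its difference was -0.62 (SE 0.25, adjusted p = 0.768). It missed the unadjusted threshold after scaling, at -0.46, without controls 1 and 4, at -0.41, and without control 1, 2 or 4 or oligo-1 liver 1 or 2, at -0.61 to -0.48. Cebpa, the C/EBP factor of resting hepatocytes, had 252, 316 and 237 TPM in the oligo-1 livers, against 142, 208, 257 and 173 TPM in the control livers. Its difference of 0.48 (SE 0.22, adjusted p = 0.768) missed the unadjusted threshold. Hnf4a, a hepatocyte identity factor, had 163, 151 and 119.6 TPM in the oligo-1 livers, against 155, 199, 197 and 144 TPM in the control livers. Its groups overlapped.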

How the data were processed

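Liver mRNA of 7 mice was measured in 3 oligo-1 and 4 control libraries, with groups and replicate numbers as the labels name them. Libraries followed the standard Illumina procedure after TRIzol extraction, and the authors quantified genes with kallisto (version not given in the sources used here). The submitters' notes on processing name the build mm10. The table was deposited in TPM, which kallisto scales to a fixed total per library over all transcripts quantified. The genes that the authors listed add up to 85.8% to 88.3% of that total. TPM keeps no depth, and a gene that takes a larger share lowers the others.

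Values were transformed to log2(TPM + 1), which understates changes of low genes. The 10455 genes with at least 1 TPM in at least 3 libraries were tested, oligo-1 against control, with limma-trend (limma 3.58.1, R 4.3.3), 2-sided, without covariates, with Benjamini-Hochberg adjustment over all of them. Called genes have an adjusted p below 0.05. The code was tested on simulated data. The authors used edgeR for their own calls, a count method, which TPM values cannot enter. Of the listed symbols, 97.2% were found in GENCODE M21. Promoters are from RefSeq.

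The members, lists and alternatives were chosen with earlier results of these data known. Values per liver are printed for the C1q and fibrinogen chains, members at an unadjusted p below 0.05 or with separated groups, the most abundant member and that of smallest p in each role, and listed non-members at an unadjusted p below 0.05. Cfp, Vsig4, Mcfd2, Cebpa, Hnf4a, Serpinc1 and Serping1 were added after their values were seen. A gene that the rule names is not reported here. Alternatives were a pseudocount of 0.1, no filter, a filter of 5 TPM, median-ratio scaling, array weights, a replicate block and omitted libraries.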

Additional observations from a re-analysis of the deposited data

How the results depend on the processing

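No member was called in any setting except array weights, which called 16 members and 556 higher and 4210 lower genes of the table. Those weights gave controls 1 and 4 values of 1.97 and 3.53 and controls 2 and 3 values of 0.167 and 0.210, so the control mean rested on 2 livers. Under them 10 members were higher and 11 lower at an unadjusted p below 0.05, the median of hepatocyte-made complement was -0.12, and F2 was 0.083, Fga -0.024, Hrg 0.25, Kng1 -0.0082 and Plg 0.13. After median-ratio scaling no member was lower at that threshold and none lay wholly below its controls. The medians of coagulation and hepatocyte-made complement were then 0.20 and 0.12, and Cfi was 0.0037, F2 0.16, Hrg 0.13, Plg 0.15 and Vtn 0.089. With no filter, 2 members (C3 and C9) were lower at an unadjusted p below 0.05. Without controls 1 and 4, 1 gene of the table was called higher, 3 members lay wholly above their controls, the C1q median was 0.48, and C1qa was 0.33, C1qb 0.48, C1qc 0.51, C4b -0.14, C8g -0.082, Kng1 -0.068, Mbl2 0.065, Proc -0.0075 and Pros1 0.019. The replicate numbers did not pair the livers: deviations of same-numbered livers correlated at 0.078, -0.015 and -0.115. With a replicate block, to which control 4 adds nothing, 53 genes of the table were called higher and 33 lower, and 0 members were higher and 1 (C3) lower at an unadjusted p below 0.05. For array weights, no filter and the replicate block, the share of all tested genes at the unadjusted threshold was not tabulated. The member counts at that threshold in these settings are therefore descriptions and not results about the members.

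Leaving out 1 liver at a time gave 0 to 19 genes called higher and 0 to 10 called lower, both highest without control 3. Members at an unadjusted p below 0.05 numbered 0 to 1 higher and 0 to 3 lower, those wholly above their controls 1 to 3 and those wholly below 2 to 5. The shares of all tested genes were not tabulated for these refits, so the counts cannot be read as results about the members. Separated groups are commoner with fewer livers. Without controls 1 and 4, 17.8% of all tested genes lay wholly above and 7.81% wholly below. Single-gene values from the refits without 1 liver were tabulated only for the members under the naming rule. Among these the log2 fold changes crossed 0 for C4b (-0.031 to 0.22), F2 (-0.11 to 0.092), Fga (-0.057 to 0.14), Hrg (-0.26 to 0.11), Kng1 (-0.042 to 0.088), Plg (-0.12 to 0.067) and Vtn (-0.16 to 0.016). The C1q median ranged over -1.49 to -0.49. Complement minus coagulation in median was -0.28 with array weights and 0.0572 without controls 1 and 4. The cause of these shifts was not tested. Depth is unknown, and 3 against 4 livers limits the precision, with standard errors of 0.14 to 0.79 among the members.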
